A study of Mus musculus with 4 samples.

Results

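Described here are 10 genes of the JAK-STAT5 pathway, through which interleukin-7 signals, taken by name from the array: the kinases Jak1 and Jak3, the transcription factors Stat5a and Stat5b, the feedback inhibitors Cish, Socs1, Socs2 and Socs3, and the targets Pim1 and Bcl6. They were carried by 17 of the 41174 non-control probes, and 9 genes (all but Socs2), with 15 probes, passed the filter on dim probes, out of 13062 genes that passed in all. The choice used names and no measured value. The question was whether genes downstream of the receptor follow its loss.

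Interleukin-7 signals through a receptor made of its own alpha chain, encoded by Il7r, and the common gamma chain, encoded by Il2rg. The kinases JAK1 and JAK3 sit on the alpha and gamma chains, and together they phosphorylate the transcription factors STAT5A and STAT5B. These then pair, enter the nucleus and switch target genes on or off. Some of those targets, the genes of CIS and the SOCS proteins, encode inhibitors that bind back to receptors or kinases and damp the signal, while PIM1 is a kinase that promotes survival and BCL6 is a repressor. CD4+CD8+ double-positive (DP) thymocytes, the precursors that carry both co-receptors and await positive selection, are known for a low interleukin-7 receptor and for high SOCS1, and they regain the receptor when they are selected.

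RNA came from sorted DP thymocytes of mice 6 to 12 weeks old that had received no treatment. Every mouse carried loxP-flanked Usp8, the gene of a deubiquitinase (USP8) that acts on endosomal sorting of receptors. One group, USP8ff_CD4Cre, also carried Cre driven by Cd4 regulatory sequences, which act from about the DP stage onward, and the other, USP8ff, did not. The mice were littermates matched for sex, each group gave 2 samples (replicates 1 and 2), and each sample pooled 2 mice, 8 in all. No group had Cre without the flanked alleles, so the effects of Cre and of the deletion cannot be told apart. The 4 pools were run on 4 arrays of 1 slide, so p-values rest on how far pools of a genotype differ, and having 4 arrays limits the precision.

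Levels below are log2 signals relative to the 75th percentile of the same array, so that 0 is that percentile and each step of 1 doubles the signal. A probe's level depends on its own sequence, so levels are compared between arrays for 1 probe and not between genes. Differences are USP8ff_CD4Cre minus USP8ff on the log2 scale, from limma over all 13062 genes, with Benjamini-Hochberg adjustment. The arrays report steady-state RNA, not phosphorylation or protein.

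The sorted cells carried the DP markers: all 10 listed genes, among them Cd4, Cd8a, Cd8b1, Rag1, Rag2 and Dntt, were measured in both genotypes. From 18535 to 20153 of the 41174 probes per array were well above background, and correlations across genes were 0.995 between the USP8ff_CD4Cre pools, 0.993 between the USP8ff pools and 0.991 to 0.996 between genotypes. Several defining markers of other cells were below the filter: Ms4a1, Cd79a, Pax5 and Ebf1 of B cells, Csf1r, Adgre1, Itgam, Itgax and H2-Aa of macrophages and dendritic cells, Klrb1c, Ncr1, Klrd1, Gzmb and Eomes of NK and innate-like T cells, Foxp3, Il2ra and Ctla4 of regulatory T cells, Kit, Il2ra, Erg and Hes1 of double-negative thymocytes, and S1pr1 of mature single-positive thymocytes. The targeted gene Usp8 had levels of -1.03 and -1.23 in USP8ff_CD4Cre and of -0.23 and -0.40 in USP8ff, a signal of 56.9% of that in USP8ff (95% interval 45.1% to 71.9%, adjusted p = 0.60 in limma). Whether its probe lies within the deleted part is not stated in the labels.

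Il7r, the gene of the interleukin-7 receptor alpha chain, had levels of -4.81 and -5.07 in USP8ff_CD4Cre and of -2.23 and -1.66 in USP8ff, on the probe at chr15:9435976-9436035 (mm9, minus strand). It was not well above background on either USP8ff_CD4Cre array, which makes the difference a bound of at least 5.01-fold lower in USP8ff_CD4Cre (adjusted p = 0.29 in limma for the measured difference, the smallest p of all genes). With normexp background the measured difference was -1.06, a smaller change than that bound. Other Il7r probes, at chr15:9440943-9441002 and chr15:9442570-9442629, were not well above background on any array of either genotype. The Il7r difference therefore rests on a single probe. In the authors' deposited table Il7r is marked down with an absolute fold of 7.94, and that table, which lists 78 probes, holds 0 of the 10 genes described here. Il2rg, the gamma chain gene, had 2.65 and 2.88 in USP8ff_CD4Cre and 2.87 and 3.07 in USP8ff, and the groups overlapped (difference -0.21 ± 0.14, SE).

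Among the 9 measured pathway genes, 0 passed adjustment over all genes, where 0% of the 13062 did. At an unadjusted p under 0.05 there was 1, Socs3, where 7.43% of all genes were past that level. The difference was negative for 8 of the 9 and positive for Pim1, against 45.2% negative among all genes. The median difference was -0.14, against 0.02 for all genes. Both USP8ff_CD4Cre arrays lay below both USP8ff arrays for 4 genes, Jak1, Stat5b, Socs1 and Socs3 (16.3% of all genes), and above them for 1, Pim1 (24.3% of all genes), so that 5 of the 9 did not overlap, against 40.6% of all genes. The other 4, Jak3, Stat5a, Cish and Bcl6, overlapped. Without USP8ff_CD4Cre replicate 2 the median difference was -0.063 and 7 of the 9 were negative.

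**Figure D1:**
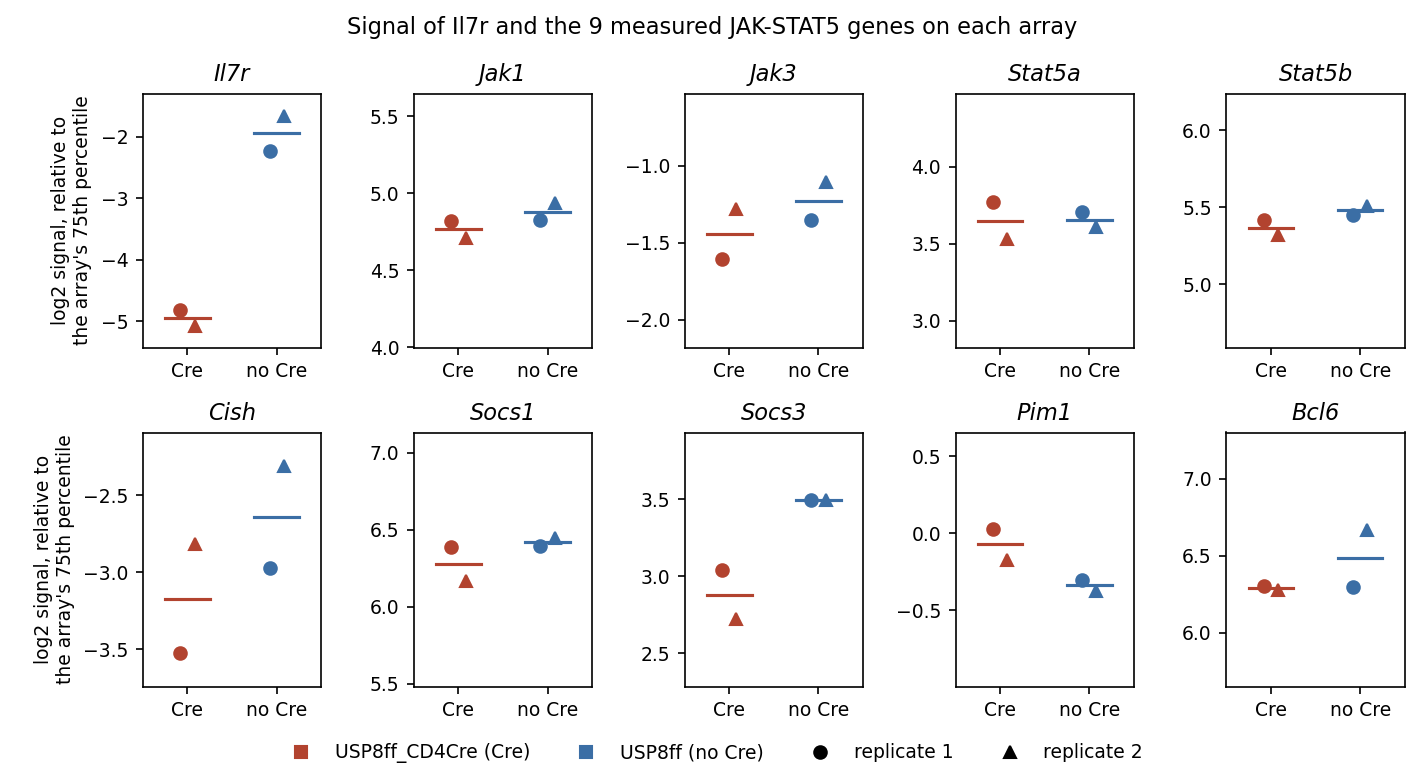
Log2 signal relative to the 75th percentile of the array (vertical axes, which differ in range) for Il7r and the 9 measured pathway genes, with USP8ff_CD4Cre (Cre, red) left of USP8ff (no Cre, blue); circles are replicate 1, triangles replicate 2 and lines the means. Il7r stands at -4.81 and -5.07 in USP8ff_CD4Cre, far below USP8ff, while among the pathway genes the gap between the genotypes is largest for Socs3.

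Socs3 encodes an inhibitor that blocks JAK kinases bound to cytokine receptors such as those of the interleukin-6 family. It had levels of 3.04 and 2.72 in USP8ff_CD4Cre and of 3.49 and 3.50 in USP8ff. Both USP8ff_CD4Cre pools were low, and the gap of 0.45 between the nearest arrays of the genotypes was wider than the distance of 0.32 between the USP8ff_CD4Cre pools and of 0.0019 between the USP8ff pools. The difference was -0.61 ± 0.14 (SE), a signal of 65.3% of that in USP8ff (95% interval 50.7% to 84.1%), with an unadjusted p of 0.0073 and an adjusted p of 0.66 in limma. By unadjusted p it stood at rank 132 of the 13062 genes. Its only probe covers chr11:117827480-117827539 (mm9, minus strand).

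Cish encodes CIS, which competes with STAT5 for its docking sites on receptors. Its levels were -3.53 and -2.82 in USP8ff_CD4Cre and -2.97 and -2.31 in USP8ff, close to the lowest levels scored as well above background, which ran from -4.49 to -3.87 across the arrays. The genotypes overlapped, because replicate 2 was above replicate 1 by 0.71 in USP8ff_CD4Cre and by 0.66 in USP8ff. The difference of -0.53 ± 0.32 (SE, adjusted p = 0.72 in limma) was smaller than that distance between pools of a genotype. Its 95% interval, from 39.3% to 122% of the USP8ff signal, holds losses larger than that of Socs3 as well as no loss. With normexp background the difference was -0.31, without USP8ff_CD4Cre replicate 1 it was -0.17, without USP8ff replicate 2 it was -0.20, without USP8ff_CD4Cre replicate 2 it was -0.89 and without USP8ff replicate 1 it was -0.86. The probe lies at chr9:107204196-107204255 (mm9, plus strand).

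Socs1 encodes the SOCS protein known for holding back cytokine signals in DP thymocytes. It had 6.39 and 6.17 in USP8ff_CD4Cre and 6.39 and 6.44 in USP8ff. The arrays of the genotypes were 0.0061 apart at the nearest, against 0.22 between the USP8ff_CD4Cre pools. The difference was -0.14 ± 0.12 (SE, adjusted p = 0.80 in limma), and its interval ran from 72.9% to 113% of the USP8ff signal. Socs2, whose protein restrains growth hormone signalling, stayed not well above background throughout, with levels of -6.04 and -5.66 in USP8ff_CD4Cre and of -5.08 and -5.99 in USP8ff, so no fold is given.

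The 2 targets outside the SOCS family differed in sign. Pim1 had 0.03 and -0.18 in USP8ff_CD4Cre and -0.30 and -0.37 in USP8ff. Both USP8ff_CD4Cre pools were above both USP8ff pools, by 0.12 at the nearest, while the USP8ff_CD4Cre pools were 0.21 apart. The difference was 0.26 ± 0.12 (SE, adjusted p = 0.70 in limma), with an interval from 96.7% to 149% of the USP8ff signal. Bcl6, a repressor made in DP thymocytes and in follicular T and B cells, had 6.30 and 6.28 in USP8ff_CD4Cre and 6.30 and 6.67 in USP8ff. Only USP8ff replicate 2 stood above the other 3 arrays, and the difference of -0.19 ± 0.15 (SE, adjusted p = 0.78 in limma) was -0.0062 without it.

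The kinases and STAT5 genes showed small differences. Jak1 had 4.82 and 4.71 in USP8ff_CD4Cre and 4.83 and 4.93 in USP8ff, with 0.0063 between the nearest arrays and a difference of -0.11 ± 0.11 (SE). Jak3, the kinase of the gamma chain, had -1.60 and -1.28 in USP8ff_CD4Cre and -1.36 and -1.11 in USP8ff, and the groups overlapped, with a difference of -0.21 ± 0.16 (SE). Neither kinase gene was past an unadjusted p of 0.05. Stat5a had 3.77 and 3.53 in USP8ff_CD4Cre and 3.71 and 3.61 in USP8ff, with a difference of -0.0070 ± 0.13 (SE). Its sign turned when 1 pool was left out, to 0.042 without USP8ff replicate 1 and 0.11 without USP8ff_CD4Cre replicate 2. Stat5b had 5.42 and 5.32 in USP8ff_CD4Cre and 5.45 and 5.51 in USP8ff, with a difference of -0.11 ± 0.11 (SE). The adjusted p in limma was 0.82 for Jak1, 0.77 for Jak3, 0.99 for Stat5a and 0.82 for Stat5b. The intervals, as percent of the USP8ff signal, were 75.7% to 113% for Jak1, 64.7% to 115% for Jak3, 79.2% to 125% for Stat5a and 76.5% to 112% for Stat5b.

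**Figure D2:**
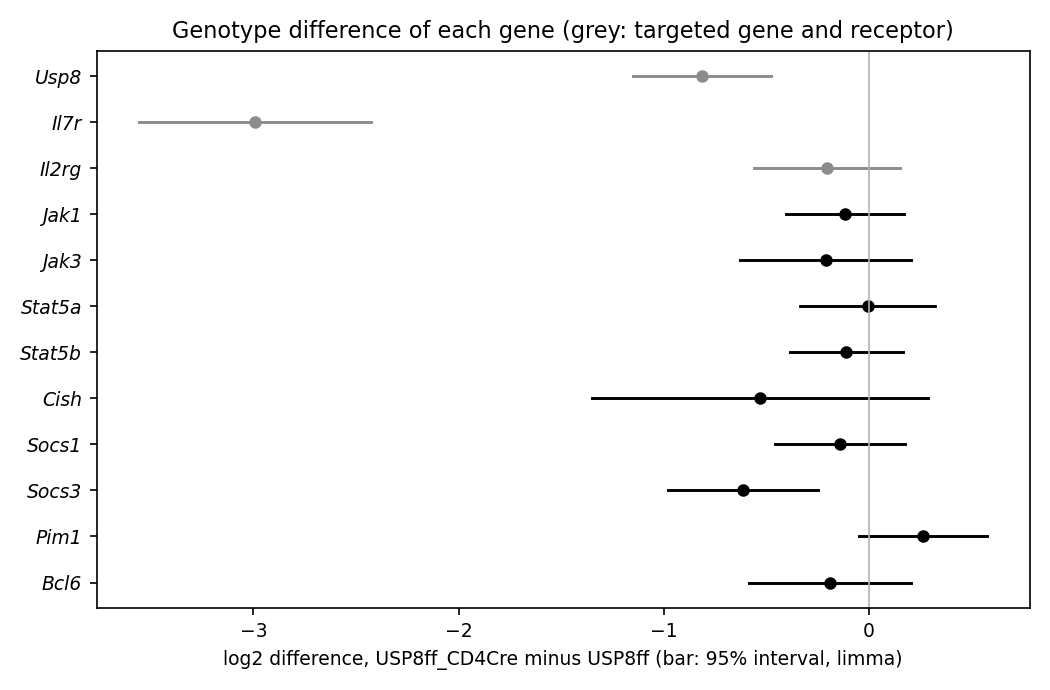
Log2 difference, USP8ff_CD4Cre minus USP8ff, for Usp8, Il7r and Il2rg (grey) and the 9 measured pathway genes (black), with 95% intervals from limma that are not adjusted for the number of genes. Of the pathway genes, the interval of Socs3 lies below 0 and those of the other 8 include 0; the Il7r value is the measured one, with USP8ff_CD4Cre not well above background.

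Several probes were available for Jak1, Jak3 and Stat5b, 9 kept probes in all, and every one had a negative difference. They do not all read the same RNA. The first 30 of the 60 bases of each Jak1 and Jak3 probe are given here as on the array, because their targets differ in strand or in the genes they list.
Jak1 probe at chr4:100825794-100825853 (minus strand): ccaaaagactagattgtgcctaagcactcc
Jak1 probe at chr4:100825094-100825153 (minus strand): tttttcaccttttgagcccttttcccaaag
Jak1 probe at chr4:100829070-100829129 (plus strand): ccaaagtctccgatcttcacttgatgctca
Jak3 probe at chr8:74210826-74211151 (plus strand): gtacgagctcttcacctactgcgacaagag
Jak3 probe at chr8:74214085-74214144 (plus strand): tggctagagcagagacatctcctgcacgcg
Jak3 probe at chr8:74214308-74214367 (plus strand): ctcctggctatgtcattgcaacaacccagt
Positions are mm9. The third Jak1 probe lies on the strand opposite to the RefSeq gene, so its signal is not that of the Jak1 messenger RNA. Its levels were -3.10 and -3.34 in USP8ff_CD4Cre and -3.19 and -2.77 in USP8ff, with a difference of -0.24 ± 0.18 (SE). The sense probes had -0.11 ± 0.12 and -0.077 ± 0.13 in the fit of every probe.

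The Jak3 probes ending at 74214144 and 74214367, list a transcript of Insl3, an insulin-like hormone gene, beside that of Jak3, so these genes cannot be told apart by them. The brighter of them stood for Jak3 above. The probe that lists Jak3 alone spans 326 bases of the genome with its 60 bases, hence crosses an intron, and had -1.96 and -1.92 in USP8ff_CD4Cre and -1.92 and -1.80 in USP8ff. Its difference was -0.078 ± 0.11 (SE), against -0.21 ± 0.16 and -0.0058 ± 0.17 for the probes shared with Insl3. With the mean of its probes Jak3 had -0.10. The 3 Stat5b probes had differences of -0.11 ± 0.11, -0.14 ± 0.17 and -0.16 ± 0.37 (SE), the last for the probe of a clone transcript at chr11:100682720-100682779. None of the 9 passed at an unadjusted p under 0.05. A Pim1 probe at chr17:29628627-29628686, also opposite to its gene, was not well above background in any pool.

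**Figure D3:**
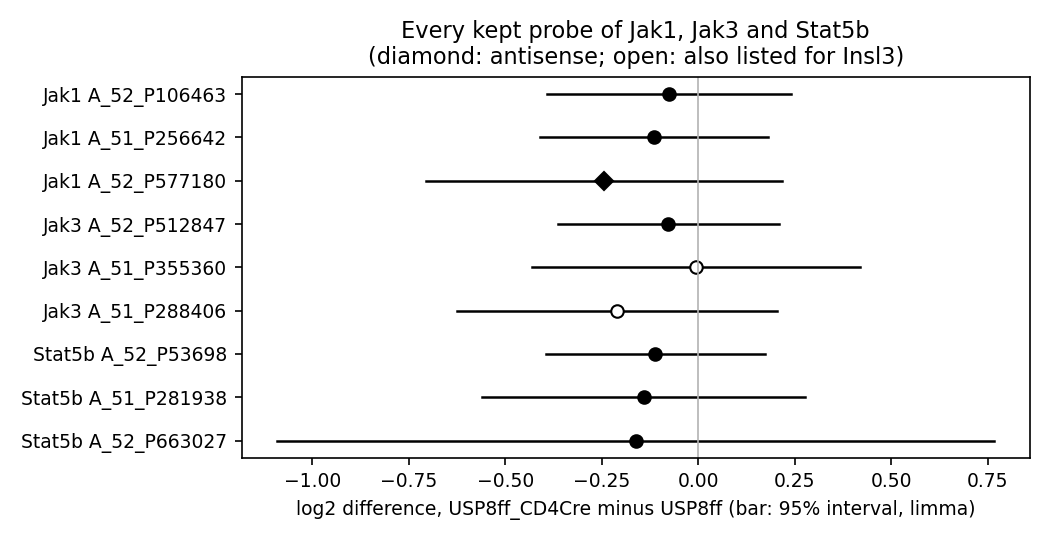
Log2 difference, USP8ff_CD4Cre minus USP8ff, with 95% intervals from a limma fit of every kept probe, for the probes of Jak1, Jak3 and Stat5b. The diamond marks the antisense Jak1 probe and open symbols the probes that also list Insl3; all 9 differences are below 0 and every interval includes 0.

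STAT5 binds pairs of inverted half-sites, written TTCNNNGAA, which reads the same on both strands. This motif was searched in RefSeq promoter windows of 300 bases (GRCm38.p6, 250 before and 50 after each start), of which 9 of the 10 genes had at least 1, 13 windows in all. It was found in windows of Cish, Socs3 and Bcl6 (4 of the 13 windows), and in 8.30% of all 32851 windows. Cish and Socs3, the inhibitor genes with the most negative differences, and the Bcl6 start with the most matches are shown, 5′ to 3′ on the strand of the gene, with the motif in capitals.
Cish, chr9:107296409-107296678, plus strand: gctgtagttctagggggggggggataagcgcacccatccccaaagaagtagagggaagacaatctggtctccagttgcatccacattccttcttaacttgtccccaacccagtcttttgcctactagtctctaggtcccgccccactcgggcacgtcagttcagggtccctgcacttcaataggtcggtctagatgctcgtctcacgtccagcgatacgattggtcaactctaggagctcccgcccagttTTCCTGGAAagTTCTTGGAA
Socs3, chr11:117969367-117969616, minus strand: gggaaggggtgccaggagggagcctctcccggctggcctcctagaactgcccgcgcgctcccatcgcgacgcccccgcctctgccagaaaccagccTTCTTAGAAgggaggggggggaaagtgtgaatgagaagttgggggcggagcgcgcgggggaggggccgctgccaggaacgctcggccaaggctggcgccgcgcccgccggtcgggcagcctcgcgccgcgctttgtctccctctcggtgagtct
Bcl6, chr16:23981284-23981533, minus strand: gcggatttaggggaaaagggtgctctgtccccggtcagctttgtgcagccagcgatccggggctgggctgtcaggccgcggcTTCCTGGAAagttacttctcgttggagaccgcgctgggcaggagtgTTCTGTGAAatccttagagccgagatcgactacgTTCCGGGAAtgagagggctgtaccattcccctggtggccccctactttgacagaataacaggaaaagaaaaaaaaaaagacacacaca
With +1 as the first base after each window's upstream part, a RefSeq transcript start, the Cish matches begin at positions 1 and 12, the Socs3 match at -154 and the Bcl6 matches at -168, -122 and -88. A further Bcl6 start holds 1 match. No window of Jak1, Jak3, Stat5a, Stat5b, Socs1 or Pim1 holds these letters, which says nothing of STAT5 binding elsewhere. The genes with a match differed in their values: Socs3 had -0.61, Cish -0.53 and Bcl6 -0.19. Those measured without a match ran from -0.21 (Jak3) to 0.26 (Pim1). The Il7r window also holds 1 match, beginning at -142. Whether the motif relates to the differences was not tested.

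The other genes of the pathway were counted in 5 lists, and 0 of the 65 that were measured passed adjustment over all genes. At an unadjusted p under 0.05, 6 were lower in USP8ff_CD4Cre, where 3.46% of all genes were, and 0 were higher, where 3.97% were. Il7r and Il2rb, both among the 6, passed the filter on dim probes through USP8ff alone. Their place among the lower genes is therefore not independent of the filter. The lists and their genes were chosen with earlier results of these data known, and Il7r, Il2rb and Ccnd2 had been seen before.

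Of 20 cytokine receptor genes 17 were measured, with a median difference of -0.11 and 11 negative. The 4 with the smallest p were Il7r, Il2rb, Il10ra and Il27ra. Il2rb, the chain that binds interleukin-2 and interleukin-15, had -3.93 and -3.10 in USP8ff_CD4Cre and -1.81 and -1.17 in USP8ff, with 1 of its 2 USP8ff_CD4Cre signals well above background. Il10ra, the ligand-binding chain of the interleukin-10 receptor, which signals through JAK1, had -0.02 and 0.15 in USP8ff_CD4Cre and 0.55 and 0.97 in USP8ff, a difference of -0.69 ± 0.17 (SE, adjusted p = 0.66 in limma). Il27ra had 0.38 and 0.35 in USP8ff_CD4Cre and 0.74 and 0.63 in USP8ff, a difference of -0.32 ± 0.11 (SE, adjusted p = 0.66 in limma). Both Il10ra and Il27ra were low in each USP8ff_CD4Cre pool, with no overlap.

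All 7 other JAK and STAT genes were measured, with a median of -0.04 and differences between -0.22 and 0.14. Tyk2 (-0.22 ± 0.11) and Stat4 (-0.20 ± 0.12) were lower in both USP8ff_CD4Cre pools, and Stat3 (0.14 ± 0.13, SE) overlapped. Unadjusted p was above 0.05 for each.

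The next list held the other SOCS genes, regulators of the pathway (phosphatases, PIAS proteins, the ubiquitin ligase that SOCS proteins recruit) and the STAM adaptors. Its genes were mostly on the positive side. All 20 were measured, 15 had positive differences, against 54.8% of all genes, and the median was 0.08, against 0.02 for all genes. Both USP8ff_CD4Cre arrays lay above both USP8ff arrays for 9 of them, against 24.3% of all genes, and below for 0, against 16.3%. Socs7 had levels of -3.39 and -3.12 in USP8ff_CD4Cre and of -3.51 and -3.74 in USP8ff, a difference of 0.37 ± 0.15 (SE). Those levels, like those of Cish, were close to the lowest scored as well above background. Over the alternatives that left no array out, the Socs7 difference was as small as 0.12. Socs5 had 0.23 ± 0.10, Socs6 0.16 ± 0.11 and Elob, the elongin B subunit of that ligase, 0.24 ± 0.10 (SE). The adjusted p in limma was 0.67 for Socs7, 0.70 for Socs5, 0.75 for Socs6 and 0.68 for Elob.

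Of 14 other genes that respond to STAT5 or interleukin-7, 13 were measured, with a median of -0.02 and 7 negative. Ccnd2, a D-type cyclin gene, had -1.94 and -1.80 in USP8ff_CD4Cre and -0.14 and 0.40 in USP8ff, a difference of -2.00 ± 0.20 (SE, adjusted p = 0.29 in limma). The differences of the other 12 lay between -0.13 (Mcl1, a survival gene, named after its value was seen) and 0.32 ± 0.18 (Hk2, a hexokinase gene). Ccnd3 had 0.27 ± 0.19 and Myc 0.19 ± 0.15 (SE). Bcl2, a survival gene that interleukin-7 maintains, had 1.60 and 1.33 in USP8ff_CD4Cre and 1.56 and 1.41 in USP8ff, and the groups overlapped (-0.02 ± 0.14, SE; named after its value was seen). Its sign turned to positive without USP8ff replicate 1 and without USP8ff_CD4Cre replicate 2.

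Of 11 partners and repressed targets of BCL6, 9 were measured, with a median of 0.05. Beside Ccnd2, which is also on this list, Id2, an inhibitor of E proteins, had -0.28 and -0.78 in USP8ff_CD4Cre and 0.28 and 0.13 in USP8ff, a difference of -0.74 ± 0.19 (SE, adjusted p = 0.66 in limma). Klf2 had 0.23 ± 0.12 and the co-repressor gene Ncor1 0.11 ± 0.11 (SE). The other 5 measured genes had differences between -0.010 and 0.067.

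**Figure D4:**
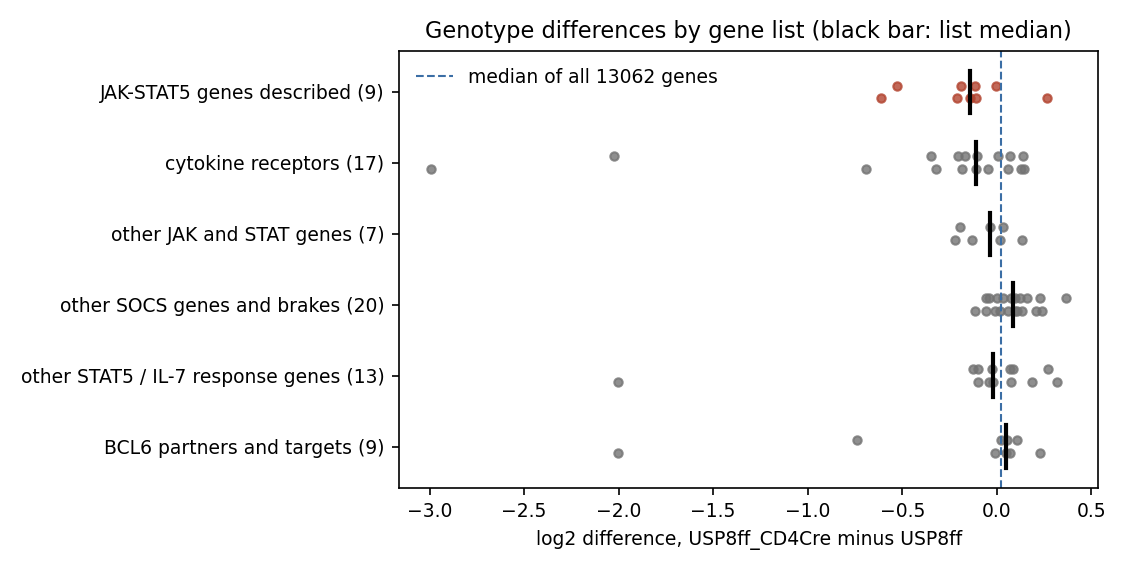
Log2 difference, USP8ff_CD4Cre minus USP8ff, of each measured gene (points) in the 9 pathway genes described here (red) and in 5 lists of related genes (grey), with list medians as black bars and the median of all 13062 genes as a dashed line; the number measured is in brackets. Il7r, Il2rb, Ccnd2, Il10ra and Id2 lie furthest to the left, and the 9 genes described here have a median of -0.14.

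Markers of other cells are given by list, since their part in the values of Socs3, Cish and the receptor genes was not tested. No marker passed adjustment over all genes in limma. In bulk samples, fewer cells of a type and less RNA per cell cannot be told apart. Summed signals of a list are in multiples of the 75th percentile signal of the array, and the brightest probes of a list weigh most in its sum. The sums did not overlap between genotypes for macrophage and dendritic cell, regulatory T cell, B cell, mature single-positive and DP markers, and overlapped for the NK and double-negative lists. Of single genes, 40.6% did not overlap, and no such share was computed for sums. Macrophage and dendritic cell markers (5 of 10 measured, all 5 negative) summed to 1.42 and 1.72 in USP8ff_CD4Cre and to 2.46 and 2.69 in USP8ff, with Ctss at -1.96 and Mpeg1 at -1.09. Regulatory T cell markers (4 of 7 measured, 3 negative) summed to 18.1 and 18.0 in USP8ff_CD4Cre and to 20.8 and 23.7 in USP8ff, with Gpr83 at -1.94 and Icos at -0.59. Tnfrsf18, the brightest of the list, had levels of 3.57 and 3.67 in USP8ff_CD4Cre and of 3.89 and 4.13 in USP8ff. Ikzf2 was higher in both USP8ff_CD4Cre pools, with 2.14 and 1.97 there and 1.89 and 1.76 in USP8ff (both named after their values were seen). NK and innate-like T cell markers (5 of 10 measured, 3 negative) summed to 3.94 and 5.29 in USP8ff_CD4Cre and to 4.28 and 4.37 in USP8ff, with Nkg7 at -2.09 and Il2rb at -2.02. Gzma, at 0.42, and Tbx21, at 0.15, were higher in both USP8ff_CD4Cre pools (both named after their values were seen). Mature single-positive markers (9 of 10 measured, 7 negative) summed to 212 and 215.3 in USP8ff_CD4Cre and to 184 and 201 in USP8ff. Klf2 and Ccr9, both with positive differences, made up 197 and 200.2 of these sums in USP8ff_CD4Cre and 167 and 181 in USP8ff. The other 7 summed to 14.8 and 15.2 in USP8ff_CD4Cre and to 17.0 and 19.9 in USP8ff (Ccr9 was named after its value was seen). Il7r was negative, and Gimap4 had a bound of at least 2.19-fold lower in USP8ff_CD4Cre. With normexp background the measured Gimap4 difference was -0.49, a smaller change than that bound. B cell markers (2 of 7 measured) summed to 6.08 and 5.17 in USP8ff_CD4Cre and to 6.62 and 6.16 in USP8ff, with Blnk at -0.75 and Cd79b at -0.08. Each of these genes overlapped between genotypes, and the nearest sums were 6.08 and 6.16. Double-negative markers (2 of 6 measured) summed to 5.05 and 5.38 in USP8ff_CD4Cre and to 5.62 and 5.24 in USP8ff, with Cd44 at -0.76 and Cd3e at -0.0090. Cd3e, also on the DP list, had levels of 2.26 to 2.36 over the arrays, against -2.11 to -0.79 for Cd44. It makes up most of this sum, which therefore does not tell double-negative cells from DP cells. DP markers (10 of 10 measured) summed to 1746 and 1767 in USP8ff_CD4Cre and to 1660 and 1736 in USP8ff, with Rag2 at -0.33 and Cd1d1 at -0.25.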

How the data were processed

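Cy3-labelled cRNA from 500 ng of RNA was hybridised to 1-colour Agilent arrays, per the labels. Spot intensities, background-subtracted and detrended by Feature Extraction 10.7.3.1 per the file headers, were deposited without normalization between arrays. The authors' deposited table gives an absolute fold ratio and a p-value for 78 probes; which test gave the p-value is not stated in the labels or headers. In a further deposited table, 4 columns of per-sample values match no label and were not used.

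The log2 processed signal was set against the 75th percentile of 43379 non-control spots per array. Outlier spots were left out (17 probes) and spots of a probe averaged. A probe was kept if well above background in both pools of either genotype (19038, 46.2%), and the probe with the highest mean stood for its gene. RefSeq accessions named 26690 probes, and 14484 kept the design name. No spot was saturated. The genotype difference was fitted by lmFit and eBayes (limma 3.58.1, R 4.3.3) with no block and adjusted over 13062 genes at 0.05, and the code was tested on simulated data. A bound sets the bright group's mean against the dim arrays' lowest signal well above background, or the probe's own where higher.

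Genes named are the 10 pathway genes, Usp8, Il7r, Il2rg, the 4 genes per pathway list and 2 per marker list with the smallest p; others were chosen after their values were seen. Some genes that this rule names or that the lists hold are not reported here by name. Members, lists and tests were chosen with earlier results of these data known. Alternatives were quantile and median scaling, normexp (offset 50), no filter, a filter on all 4 arrays, mean of probes, every probe, outlier spots kept, a replicate block, an eBayes trend, and each array left out.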

Additional observations from a re-analysis of the deposited data

How the results depend on the processing

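Over 14 alternatives, 0 genes of the array, 0 of the 9 measured pathway genes and 0 of the listed genes passed adjustment, and Socs3 had a negative difference (-0.78 to -0.45) and an unadjusted p of 0.0024 to 0.039 in all 14, with adjusted p of 0.39 to 0.9997. Genes past an unadjusted p of 0.05 numbered 396 without USP8ff_CD4Cre replicate 2 and 396 to 1229 over the arrays left out, against 970. The median difference of the pathway genes was -0.17 to -0.063 over the arrays left out. Members past an unadjusted p of 0.05 numbered 1 to 2 over the arrays left out: beside Socs3, Bcl6 without USP8ff replicate 1 and Cish without USP8ff_CD4Cre replicate 2. Listed genes past that level were as few as 4 over the alternatives that left no array out, against 6. With every probe tested, 11 probes of listed genes were past it. Differences that changed sign with an array left out were those of Stat5a (-0.12 to 0.11), Bcl2 (-0.16 to 0.11), Cd3e (-0.061 to 0.043) and Cd79b (-0.17 to 0.011), and no other gene for which the text gives a difference changed sign under any setting that kept it. With normexp the Il7r difference was -1.06. The labels do not say that a replicate number pairs pools. Same-numbered arrays deviated together (correlation 0.32 across genes), and with a replicate block 1338 genes and 2 members (Socs3 and Cish) were past an unadjusted p of 0.05, with 0 called. Over the alternatives that left no array out, the difference of Socs7 was as small as 0.12. That of Il2rb was as small as -1.02, of Nkg7 -1.12, of Gpr83 -0.93, of Gimap4 -0.49 and of Mpeg1 -0.42. The 4 arrays limit what can be detected. For Cish, Il7r, Socs7, Il2rb, Nkg7, Gpr83, Gimap4 and Mpeg1 the closeness of the signal to background does so too.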
